A study of Homo sapiens with 8 samples.

Results

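Open chromatin regions (OCRs) that lay on internal or last exons, away from the starts of protein-coding genes, were described across HEK293T lines with different EZH2 alleles. Peaks of all 8 libraries on chromosomes 1 to 22 that shared at least 1 bp were merged, and 59800 regions held a peak in at least 2 libraries. Of these, 2701 overlapped an exon of a GENCODE 44 basic protein-coding transcript and lay over 1000 bp from every annotated start of a protein-coding gene. They are called exonic OCRs here. There were 1442 on internal exons only, 1108 on last exons only and 129 on both. The remaining 22 touched only a first or single exon, and were kept in the total and in no split by exon.

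Open chromatin is mostly studied at promoters and at enhancers in introns and between genes. Exons can also lie in open chromatin, where a stretch that codes for protein, or that ends the transcript, holds binding sites for transcription factors as well. Exons are usually richer in G and C than the introns around them, internal exons are short, and last exons are long because they carry most of the 3′ untranslated region (UTR).

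The libraries were ATAC-seq, in which a transposase inserts sequencing adapters into accessible DNA. HEK293T is a human embryonic kidney line. There were 4 lines with 2 libraries each, which carried either wild-type EZH2 (WT), the single changes Y641F or A677G, or the double change H689A/F667I. EZH2 is the catalytic subunit of Polycomb repressive complex 2 and methylates lysine 27 of histone H3. In the terms of the study, Y641F and A677G are gain-of-function (GOF). The H689A/F667I line is loss-of-function and is called LOF below. By its methods every line, WT included, received EZH2 by lentivirus, was selected with blasticidin and is described as monoclonal, and no removal of the cells' own EZH2 gene is described. Each genotype was thus 1 line, so a difference between genotypes and a difference between lines cannot be told apart. The 2 libraries of a line are described as biological replicates, and all mutants are compared with the same WT libraries.

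The libraries held 25423 (Y641F replicate 1) to 62739 (WT replicate 1) peaks on these chromosomes, and the read depth behind the lists is unknown. A region without a peak is called closed here, which does not mean that it had no signal. The fold given below is a peak's pileup over its local background, a ratio from the authors' peak caller, and for a region it is that of its highest peak in a library. Promoter peaks were present in 8 of 8 libraries at PAX2, LHX1, NEFL and NEFM, genes known to be active in HEK293 cells. PTPRC and ALB, markers of blood and liver, had a promoter peak in 0 libraries, while the muscle gene MYOD1 had one in 8, so a promoter peak alone is a weak marker. What part the number of peaks per library had in the results below was not tested beyond the settings given beside them.

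Sequences of 300 bp from the centre of 4 internal-exon OCRs are shown so that the layout of exon and intron inside an OCR can be seen. The letters are the plus strand of hg38, 5′ to 3′, exon bases are in capitals and intron bases in lower case. All 4 genes lie on the minus strand. CAMK2D, a calcium- and calmodulin-dependent kinase, was open in all 8 libraries. ULK2, a kinase of autophagy, was open in WT only. CD163L1, a scavenger receptor, and PKHD1, which codes for fibrocystin and is mutated in polycystic kidney disease, were open in WT and LOF and closed in GOF.
CAMK2D chr4:113547580-113547879: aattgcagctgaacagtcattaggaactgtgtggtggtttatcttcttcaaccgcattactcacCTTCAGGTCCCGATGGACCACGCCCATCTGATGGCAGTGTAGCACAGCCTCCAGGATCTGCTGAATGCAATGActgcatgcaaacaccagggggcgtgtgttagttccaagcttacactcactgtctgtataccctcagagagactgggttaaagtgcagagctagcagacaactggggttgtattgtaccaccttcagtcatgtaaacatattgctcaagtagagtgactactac
ULK2 chr17:19785988-19786287: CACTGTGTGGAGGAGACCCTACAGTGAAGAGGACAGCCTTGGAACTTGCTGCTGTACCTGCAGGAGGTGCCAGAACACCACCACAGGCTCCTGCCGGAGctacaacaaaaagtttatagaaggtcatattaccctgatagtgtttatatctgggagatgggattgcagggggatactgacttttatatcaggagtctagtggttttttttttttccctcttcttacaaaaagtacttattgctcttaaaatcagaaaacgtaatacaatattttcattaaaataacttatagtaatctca
CD163L1 chr12:7374532-7374831: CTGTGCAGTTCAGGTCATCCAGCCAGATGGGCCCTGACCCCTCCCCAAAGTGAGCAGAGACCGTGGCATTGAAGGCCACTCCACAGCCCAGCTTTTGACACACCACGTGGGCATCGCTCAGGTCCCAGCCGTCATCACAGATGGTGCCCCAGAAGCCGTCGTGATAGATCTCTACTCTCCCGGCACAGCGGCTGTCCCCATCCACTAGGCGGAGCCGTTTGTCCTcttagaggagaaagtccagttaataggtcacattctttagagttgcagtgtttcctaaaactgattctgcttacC
PKHD1 chr6:51933982-51934281: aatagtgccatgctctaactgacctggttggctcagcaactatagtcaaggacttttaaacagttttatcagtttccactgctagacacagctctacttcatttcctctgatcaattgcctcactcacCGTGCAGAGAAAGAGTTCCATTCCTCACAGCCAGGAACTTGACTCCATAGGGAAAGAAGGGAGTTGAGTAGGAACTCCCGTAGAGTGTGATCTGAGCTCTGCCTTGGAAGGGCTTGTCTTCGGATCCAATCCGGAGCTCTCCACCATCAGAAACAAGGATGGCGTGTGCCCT

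These windows held 73, 99, 226 and 172 exon bases in the order shown, all of them coding in the annotation, and in each an annotated end of the exon lay inside the window. Among all internal-exon OCRs the central window held at least 1 exon base in 898 of 1442 (62.3%), against 973 of 1108 (87.8%) of the last-exon OCRs. The internal-exon OCR with the highest mean fold of those open in all 8 libraries, at MTX2, a gene of the mitochondrial outer membrane, was of the other kind. Its centre was intronic throughout, and its 1 match to the AP-1 motif TGANTCA is in capitals.
MTX2 chr2:176297004-176297303: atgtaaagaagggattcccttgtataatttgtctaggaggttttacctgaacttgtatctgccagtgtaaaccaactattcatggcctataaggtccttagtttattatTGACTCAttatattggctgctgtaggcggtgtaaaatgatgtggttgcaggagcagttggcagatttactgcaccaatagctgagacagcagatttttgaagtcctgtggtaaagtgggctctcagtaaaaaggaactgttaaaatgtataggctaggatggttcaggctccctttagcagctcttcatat

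Internal-exon and last-exon OCRs differed in how they sat on the gene. Internal-exon OCRs were wider than the exon they covered. The median OCR was 752.5 bp wide, the median exon touched was 138.5 bp long, and exon bases made up a median of 17.0% of the OCR. In 1053 of 1442 (73.0%) a whole exon lay inside the OCR, and in 13 (0.902%) the OCR lay inside 1 exon. The converse held at last exons, where the OCR lay inside 1 exon in 614 of 1108 (55.4%). Exon bases made up a median of 100% of a last-exon OCR. The median width was 715 bp and the median number of exon bases 507. Coding sequence was touched by 1393 internal-exon OCRs (96.6%) and by 389 last-exon OCRs (35.1%), and the other 719 last-exon OCRs (64.9%) touched only UTR. The midpoint of the median internal-exon OCR lay 66.9% along its gene and 44.6 kb from the gene's 5′ end. Annotated starts of genes that are not protein-coding were within 1000 bp of 58 internal-exon OCRs (4.02%) and 89 last-exon OCRs (8.03%).

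In base composition the exonic OCRs lay between intronic OCRs and promoters. Median GC content was 52.4% on internal exons and 52.0% on last exons, against 46.6% in the 18466 intronic OCRs, 48.8% in the 22349 intergenic OCRs and 61.3% in the 16284 promoter OCRs. The ratio of observed to expected CpG was 0.275 and 0.263 on internal and last exons, 0.212 in introns and 0.708 at promoters. In each of the 8 libraries the open exonic OCRs had a higher median GC than the open intronic OCRs, by 6.06 to 7.55 percentage points. Their peaks were also wider at the median in 8 of 8 libraries, by 4.5 to 42 bp, and lower in median fold in 8 of 8, with differences of -0.159 to -0.001445. GC content is a property of the sequence that was not used to choose the OCRs, but overlap with an exon was. What part the exon bases had in the higher GC was not tested.

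**Figure D1:**
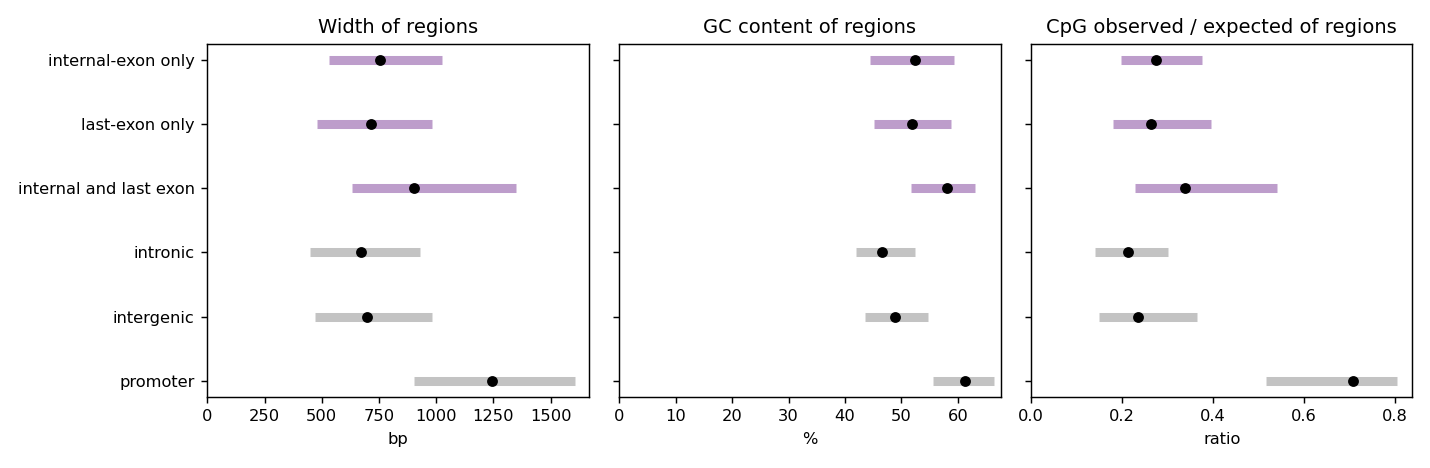
Width in bp, GC content in percent and the ratio of observed to expected CpG are shown for each class of open region. Dots are medians and bars run from the lower to the upper quartile over regions. The median GC of internal-exon and last-exon regions was 52.4% and 52.0%, between intronic (46.6%) and promoter (61.3%) regions.

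Short motifs were searched in the central 300 bp of every region, on both strands. The SP/KLF motif GGGCGGG was present in 10.96% of exonic OCRs, 4.33% of intronic OCRs and 39.2% of promoters. The AP-1 motif TGANTCA had the reverse order, at 9.26%, 12.8% and 4.13%, as did the GATA motif AGATAA at 12.6%, 19.6% and 5.85%. A part of the CTCF motif, CTNGTGGC, was found in 9.07% of exonic OCRs, against 6.80% of intronic OCRs, 5.43% of promoters and 6.83% of all 59800 regions. The ETS motif CCGGAAG was found in 3.00% of exonic OCRs, the E-box CACGTG in 4.74%, the YY1 motif AAGATGGC in 1.55% and the NRF1 motif GCGCATGC in 0.444%. In the 435 exonic OCRs that were open in all 8 libraries, GGGCGGG reached 21.6%. These are matches of letters in windows of different GC, not binding sites.

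The 2701 exonic OCRs fell in 2470 host genes, 12.9% of the 19103 protein-coding genes, and 2195 of the host genes held 1 OCR. Both genes with 5 were on chromosome 19, RYR1, the calcium release channel of skeletal muscle, and SPTBN4, a beta spectrin of the axon. By chromosome, the number per Mb of exon was 34.99 over all chromosomes and ranged from 20.9 on chromosome 13 to 48.9 on chromosome 22. Exonic OCRs made up 9.56% of the regions of chromosome 19 and 1.58% of those of chromosome 13.

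Exonic OCRs were fewest in Y641F and most numerous in WT. The WT libraries had 2320 and 2299 open exonic OCRs. There were 657 and 1214 in the Y641F libraries, 1339 and 1641 in those of A677G, and 1816 and 1762 in those of LOF. All 6 mutant libraries lay below both WT libraries, and the GOF libraries lay below both LOF libraries without overlap. The means (± SD, n = 2) were 2309.5 ± 14.8 for WT, 935.5 ± 394 for Y641F, 1490 ± 214 for A677G and 1789 ± 38.2 for LOF. On the log2 scale the difference from WT was -1.37, -0.64 and -0.37 for the 3 mutants in the same order. In each case the exact two-sided permutation test of 2 against 2 libraries gave p = 0.333, the smallest it can give.

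The 4 GOF libraries were compared with the 4 WT and LOF libraries in 4 measures, by exact two-sided permutation tests with Benjamini-Hochberg adjustment over the 4. The tests exchange single libraries, although the libraries of 1 line are not independent lines. Their p-values therefore do not measure the spread between lines. The log2 number of exonic OCRs was lower in GOF (difference -0.82, exact p = 0.0286, adjusted p = 0.0571), and the groups did not overlap. This is the smallest p of 4 against 4 libraries, and no measure passed 0.05 after adjustment. With the same number of peaks taken from every library, 25423, the number of exonic OCRs was 875 and 884 in WT, 540 and 715 in Y641F, 820 and 813 in A677G as well as 884 and 829 in LOF. At this setting the log2 difference was -0.28 (exact p = 0.0286, adjusted p = 0.114). The A677G libraries were then close to the second LOF library, and the Y641F libraries stood lowest.

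**Figure D2:**
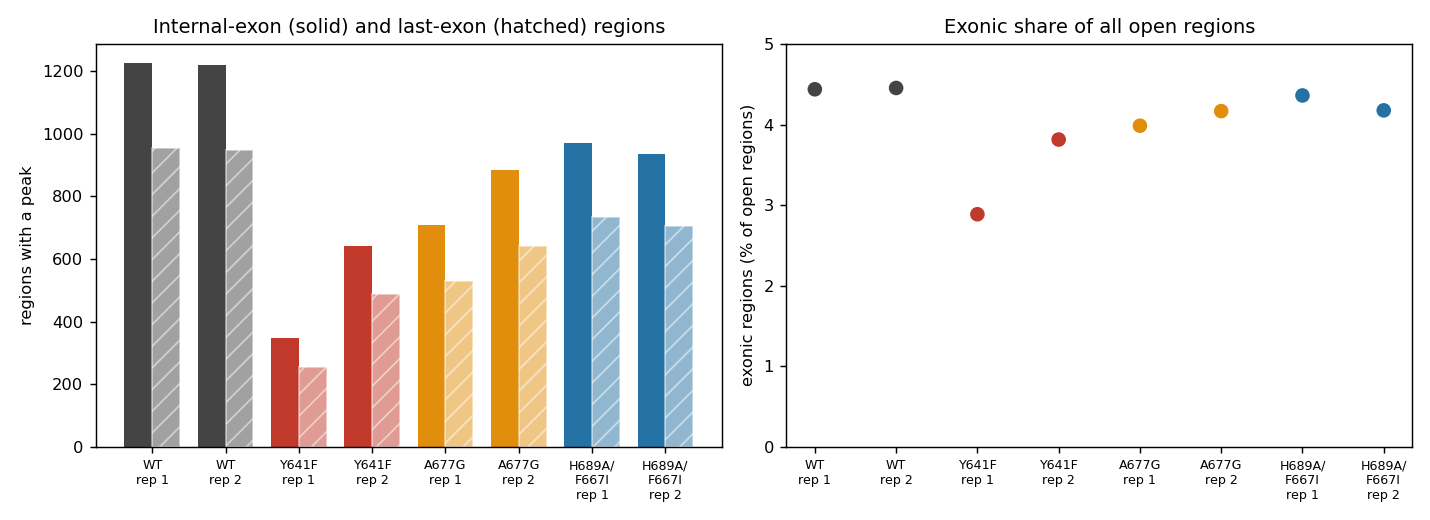
Left, the number of internal-exon (solid) and last-exon (hatched) regions with a peak in each library, and right, exonic regions as a percentage of all open regions of the library. Colours mark the 4 lines. Y641F replicate 1 was lowest in all, with 347 internal-exon and 255 last-exon regions and a share of 2.89%.

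The number of exonic OCRs was next set against that of intronic OCRs, the class most like them. The ratio was 0.153 and 0.154 in WT, 0.149 and 0.162 in Y641F, 0.168 and 0.160 in A677G as well as 0.165 and 0.155 in LOF. The groups overlapped, and the log2 ratio differed by 0.029 between GOF and the other libraries (exact p = 0.543, adjusted p = 0.543). A difference in the opposite direction was obtained with peaks at a −log10 q of at least 5 (log2 difference -0.27, exact p = 0.0857, adjusted p = 0.114) and with equal numbers of peaks (-0.16, exact p = 0.0571, adjusted p = 0.114). It was -0.012 with a peak in at least 3 lists (exact p = 0.857, adjusted p = 0.914). As a share of all open regions, exonic OCRs made up 4.44% and 4.45% in WT, 2.89% and 3.81% in Y641F, 3.99% and 4.17% in A677G as well as 4.36% and 4.18% in LOF. Promoters made up 29.8% and 30.1% of the open regions in WT and 49.5% and 41.1% in Y641F.

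Last-exon and internal-exon OCRs were counted against each other in the same way. The WT libraries had 955 and 947 on last exons for 1226 and 1219 on internal exons, ratios of 0.779 and 0.777. The ratio was 0.735 and 0.762 in Y641F, 0.745 and 0.727 in A677G as well as 0.757 and 0.753 in LOF. All 6 mutant values were below both WT values, whereas GOF and LOF overlapped. The log2 ratio differed by -0.046 between GOF and the other libraries (exact p = 0.0857, adjusted p = 0.114). The direction turned at the q limit (0.16, exact p = 0.143, adjusted p = 0.143). The difference was -3.6e-05 with equal numbers of peaks (exact p = 1, adjusted p = 1), and -0.0091 when an OCR was assigned to the kind of exon with most bases (exact p = 0.8, adjusted p = 0.8).

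Exonic peaks ranked lower by fold within their library in the mutants than in WT. The median percentile rank of an exonic peak among all peaks of its library was 50.6 and 49.99 in WT, 38.01 and 39.0 in Y641F, 41.0 and 43.0 in A677G as well as 44.1 and 43.7 in LOF. All 4 GOF libraries were below the other 4, with a difference of -6.84 percentile points (exact p = 0.0286, adjusted p = 0.0571). The rank of intronic peaks ran from 45.1 in Y641F replicate 1 to 51.6 in WT replicate 1. With equal numbers of peaks the difference for exonic peaks was -1.90 points (exact p = 0.457, adjusted p = 0.610). In fold itself, the median exonic peak was 3.73 and 3.77 in WT, 3.46 and 3.47 in Y641F, 3.59 and 3.50 in A677G as well as 3.62 and 3.61 in LOF. The median fold of internal-exon peaks was above that of last-exon peaks in the 4 WT and LOF libraries, at 3.79 against 3.70 and 3.82 against 3.72 in WT and 3.65 against 3.61 and 3.64 against 3.59 in LOF. In the 4 GOF libraries it was below, at 3.47 against 3.48 and 3.44 against 3.54 in Y641F and 3.610 against 3.614 and 3.51 against 3.52 in A677G. The split followed the groups, was noticed in these values and was not tested.

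An OCR was called lost in a mutant when both WT libraries had a peak and neither library of the mutant did. Of the 2064 exonic OCRs open in both WT libraries, 915 were lost in Y641F (44.3%, 95% Wilson interval 42.2 to 46.5), 504 in A677G (24.4%, 22.6 to 26.3) and 331 in LOF (16.0%, 14.5 to 17.7). These intervals cover counting error only and take regions as independent, which neighbouring regions of 1 library are not. Over all 46998 regions open in both WT libraries, the shares lost were 35.2%, 20.8% and 14.1%. In intronic OCRs they were 47.7%, 29.2% and 20.3%, and at promoters 13.7%, 5.99% and 3.82%. The exonic share lay below the intronic and above the promoter share in each mutant, and a difference between classes was not tested. When peaks needed a −log10 q of 5 or more, the shares for exonic OCRs were 68.3%, 43.0% and 31.3%, against 61.8%, 44.5% and 32.0% for introns, so in Y641F the order of exons and introns turned. With equal numbers of peaks the exonic shares were 24.7%, 12.9% and 10.2% and the intronic shares 23.02%, 13.3% and 11.6%, and the order in Y641F turned there too. Without Y641F replicate 2, which leaves replicate 1 alone to decide, 1481 exonic OCRs counted as lost in Y641F, and without replicate 1 the count was 1004. The A677G count was 891 without A677G replicate 2, and the LOF count was 576 and 536 without LOF replicate 1 and 2.

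Loss on last exons was a little above that on internal exons in each mutant, within overlapping intervals. In Y641F, 485 of 1090 internal-exon OCRs (44.5%, 41.6 to 47.5) and 389 of 846 last-exon OCRs (46.0%, 42.6 to 49.4) were lost. In A677G the shares were 23.9% (21.4 to 26.5) and 27.0% (24.1 to 30.0), and in LOF 15.3% (13.3 to 17.6) and 18.0% (15.5 to 20.7). Among OCRs on internal exons, last exons or both, those on both were lost least. The counts were 38 of 112 in Y641F (33.9%, 25.8 to 43.1), 13 in A677G (11.6%, 6.91 to 18.9) and 11 in LOF (9.82%, 5.57 to 16.7). Within this split they were also the widest, with a median of 903 bp, and the richest in GC, with a median of 58.2%.

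**Figure D3:**
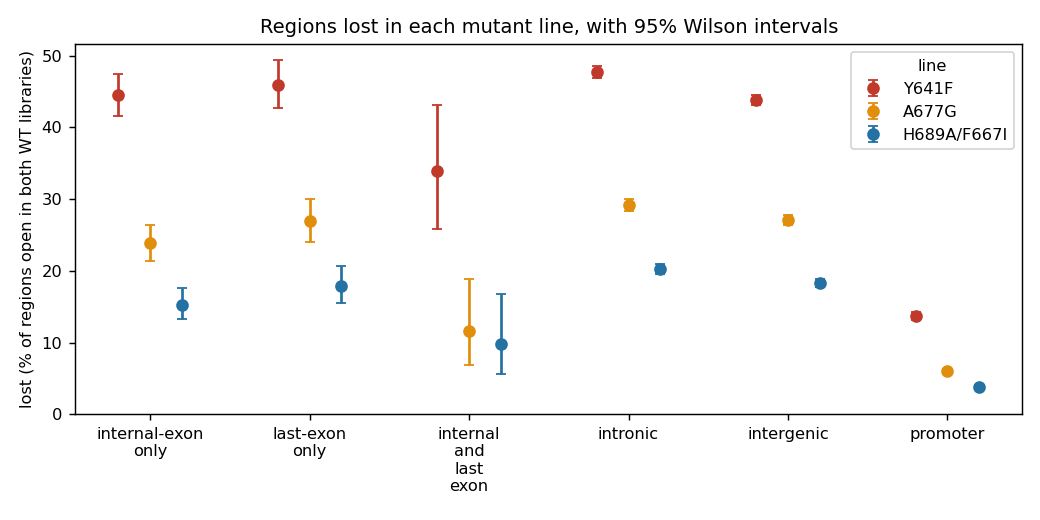
The share of regions open in both WT libraries that had no peak in either library of a mutant line, in percent, by class of region and line. Bars are 95% Wilson intervals over regions. Internal-exon and last-exon regions lay near intronic and intergenic regions, between 44.5% and 46.0% in Y641F, and above promoters at 13.7%.

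The size of the peak in WT went with loss. Regions open in both WT libraries were divided into 5 groups of equal number by their mean WT size, the −log10 p of a peak times its width. Of the exonic OCRs in the group of the smallest size, 342 of 456 (75%) were lost in Y641F, followed by 58.4%, 35.5% and 15.3%, and 0 of 112 in the group of the largest size, which allows a share of up to 2.68% when 3 counts are taken as the limit of a count of 0. The shares were 55.5%, 28.2%, 14.6%, 4.36% and 0% in A677G and 41.7%, 18.4%, 6.38%, 1.45% and 0% in LOF. Intronic OCRs of the same size groups gave 76.5%, 57.4%, 33.0%, 9.44% and 0.25% in Y641F. If introns had the sizes of the exonic OCRs, 42.6% of them would be lost in Y641F, 25.2% in A677G and 17.2% in LOF, which is within 1.72 percentage points of the exonic shares in each mutant. At the sizes of the exonic OCRs, promoters would lose 42.6%, 21.4% and 14.1%. In the smallest group, last-exon OCRs lost more than internal-exon OCRs in each mutant (79.8% against 69.2%, 56.9% against 54.8% and 45.9% against 38.5%). In the group below the largest, last-exon OCRs lost less in each (13.2% against 17.3%, 3.97% against 4.09% and 0% against 1.82%). In the groups between, the order varied, and none of this was tested.

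Among exonic OCRs, the share lost was higher at low GC. In 5 groups of equal number by GC, from 30.0% to 43.4% in the lowest to 61.0% to 77.7% in the highest, the share lost in A677G was 33.2% (28.8 to 37.8), 32.4%, 22.6%, 18.2% and 15.7% (12.5 to 19.6). In LOF it was 24.0% (20.1 to 28.3), 21.3%, 13.8%, 12.6% and 8.47% (6.16 to 11.6). In Y641F it was 49.4% (44.6 to 54.2), 48.2%, 45.6%, 41.6% and 36.8% (32.3 to 41.6). Intronic OCRs cut at the same GC values gave 32.8% in the lowest and 19.1% in the highest group in A677G, 23.01% and 14.6% in LOF, and 49.3% and 43.0% in Y641F. High-GC exonic OCRs also had a larger median size in WT, 4124 against 3049 in the lowest group. With each GC group weighted to the same WT sizes, the lowest and highest groups lost 31.6% and 18.8% in A677G, 22.7% and 9.91% in LOF, and 47.4% and 42.9% in Y641F. The mutants thus shared the direction, all against the same WT libraries. By kind of exon, the lowest and highest GC groups lost 30.6% and 18.9% on internal exons and 36.9% and 15.3% on last exons in A677G. In LOF they lost 20.2% and 10.2% on internal exons and 28.7% and 8.28% on last exons. In Y641F the internal-exon shares were close to each other, 45.5% (39.3 to 51.8) and 42.7% (36.2 to 49.5), while on last exons they were 55.6% (47.9 to 63.1) and 36.9% (29.8 to 44.7).

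**Figure D4:**
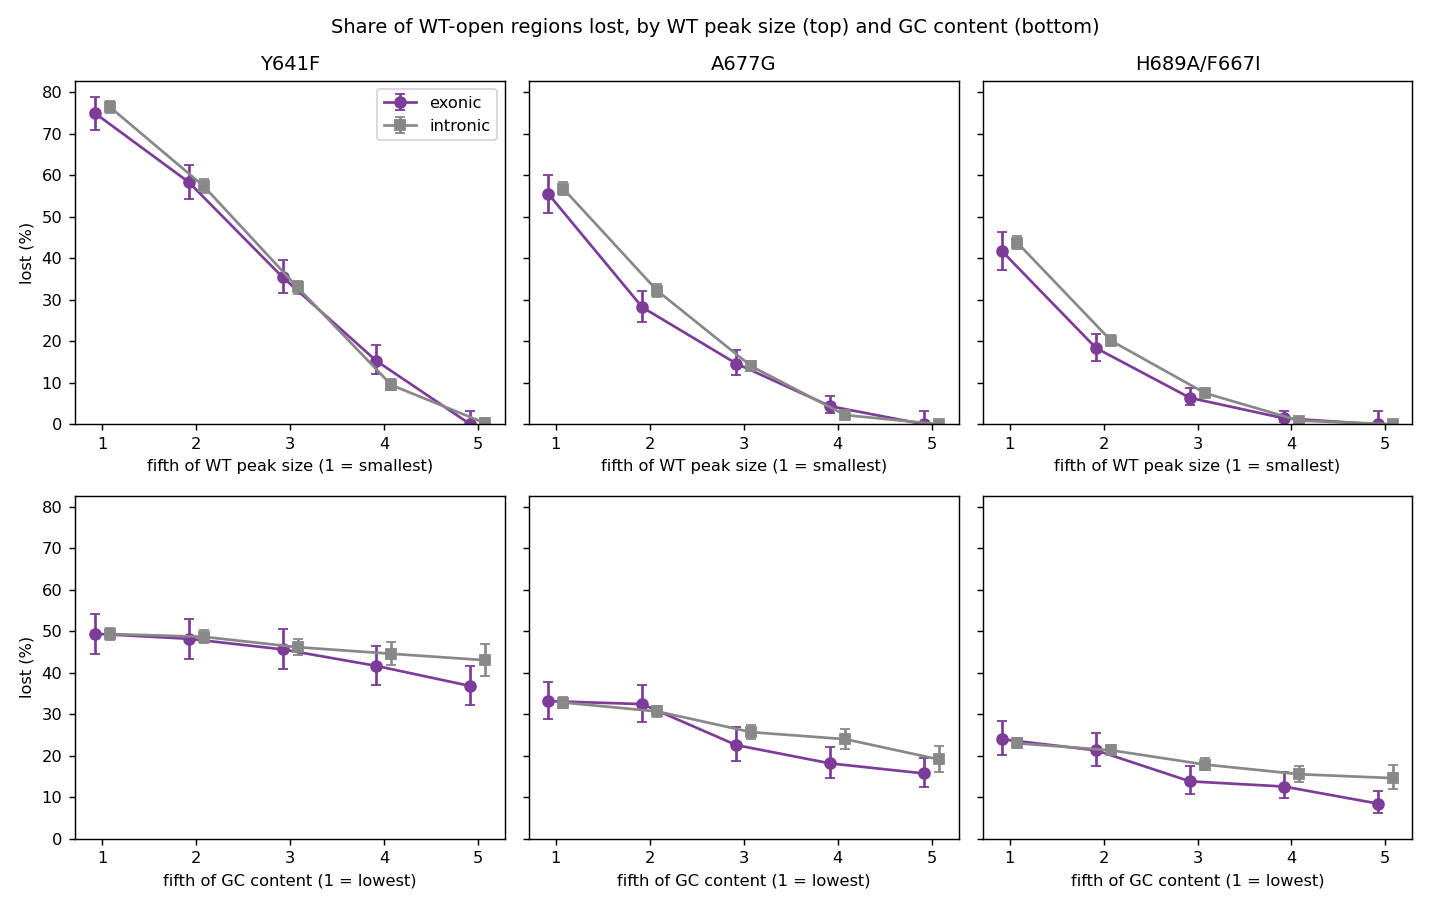
The share of WT-open regions lost in each mutant line, in percent, against 5 groups of WT peak size (top) and 5 groups of GC content (bottom), for exonic (circles) and intronic (squares) regions. Bars are 95% Wilson intervals over regions. Loss fell from 75% in the smallest to 0% in the largest exonic regions of Y641F, and from 33.2% in the lowest to 15.7% in the highest GC group of A677G.

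Retained OCRs, open in both libraries of WT and of the mutant, made up 23.9% of the 2064 WT-open OCRs for Y641F, 48.5% for A677G and 62.2% for LOF. Their median WT peak was 736 bp wide with a fold of 4.35 in Y641F, against 418 bp and 3.63 for the lost OCRs. Coding sequence was touched by 73.7% of the retained and 68.5% of the lost OCRs in Y641F, 74.8% and 64.5% in A677G as well as 74.9% and 64.0% in LOF. GGGCGGG was found in 16.1% of the OCRs retained and 7.74% of those lost in A677G, and in 15.0% and 6.34% in LOF. TGANTCA was found in 8.34% of the retained and 13.6% of the lost OCRs of LOF, and in 8.39% and 10.9% in A677G. Replicates of 1 line shared 80.8% of the exonic OCRs open in either in WT, 39.1% in Y641F, 56.3% in A677G and 64.4% in LOF, so a mutant call rests on less even pairs than a WT call.

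Gains were few. The definition of a region, a peak in at least 2 libraries, admits a region closed in WT only through mutant libraries. The shares gained are thus set in part by that definition and cannot be compared with the shares lost. Closed in both WT libraries were 146 exonic OCRs. Of these, 20 were open in both libraries of Y641F (13.7%, 95% Wilson interval 9.05 to 20.2), 19 in A677G (13.0%, 8.49 to 19.4) and 23 in LOF (15.8%, 10.7 to 22.5). Over all 2898 regions closed in both WT libraries, 8.70%, 12.7% and 22.8% were gained. With 1 library of the line or of WT left out, the Y641F count became 26 to 56, the A677G count 43 to 63 and the LOF count 57 to 72, highest without Y641F replicate 1, A677G replicate 1 and WT replicate 2 in that order. The gained OCRs with the highest fold in Y641F were on CMYA5, a muscle protein, with 4.49 and 3.24, ARHGEF38, a guanine nucleotide exchange factor, with 3.28 and 3.85, and FAM228A with 3.05 and 3.74. In A677G all 3 lay inside a last exon and were wholly coding, on DDO, D-aspartate oxidase, with 3.95 and 3.41, P2RY12, an ADP receptor, with 3.42 and 3.54, and CRNN, cornulin of squamous epithelium, with 3.84 and 3.11. In LOF they were on PRSS12, a secreted protease of neurons, with 3.86 and 3.42, MGAT5B, a glycosyltransferase, with 3.89 and 3.05, and PARVB, an adaptor of integrin adhesions, with 3.12 and 3.77. The PRSS12 OCR had a peak of fold 3.22 in A677G replicate 1 too.

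On internal exons 211 and on last exons 181 OCRs were open in all 8 libraries, and those with the highest mean fold among them are described here. Some OCRs outside this set had folds as high, such as the one at ZNF704 described below. The MTX2 OCR (chr2:176296754-176297553) had folds of 7.69 and 7.42 in WT, 6.33 and 8.02 in Y641F, 7.34 and 7.65 in A677G as well as 6.77 and 6.98 in LOF. The lowest and the highest value were both from Y641F, and its 48 exon bases were 6% of its 800 bp. The CAMK2D OCR (chr4:113547508-113547952) had 7.72 and 8.84 in WT, above every mutant library, which gave 6.30 and 6.98 in Y641F, 5.42 and 6.20 in A677G as well as 6.78 and 6.996 in LOF. At PAPSS1, a synthase of the sulfate donor PAPS (chr4:107654632-107655472), the A677G folds of 7.18 and 7.0003 exceeded WT at 5.72 and 6.40 and Y641F at 5.10 and 4.91, with 6.22 and 7.34 in LOF. At TEX36 (chr10:125661491-125662915) both A677G libraries were highest, at 6.82 and 7.63 against 5.93 and 5.56 in WT, 5.17 and 5.23 in Y641F, and 5.72 and 6.13 in LOF. The other 6 of the 10 highest internal-exon OCRs in this set were at PCNX1, LRP1B, a receptor of the LDL receptor family, NIPBL, the loader of cohesin, CNNM2, a gene of magnesium transport, TACR1, the receptor of substance P, and RRP15, of ribosomal RNA processing. Their mean folds over the 8 libraries ran from 5.49 to 5.98, and the NIPBL OCR touched 4 exon bases only.

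On last exons the OCR with the highest mean fold among those open in all 8 libraries was at MOGAT1, a monoacylglycerol acyltransferase (chr2:222709097-222709828), with 6.21 and 5.93 in WT, 5.90 and 6.64 in Y641F, 6.42 and 5.99 in A677G as well as 5.77 and 6.11 in LOF. The 4 lines overlapped. At PHACTR2 (chr6:143755247-143755863) Y641F stood lowest, with 4.21 and 3.94 against 6.41 and 6.31 in WT, 6.03 and 6.40 in A677G, and 7.16 and 6.92 in LOF. At GRIK4, a kainate receptor subunit (chr11:120985779-120986618), Y641F was also lowest, with 4.97 and 4.21 against 6.64 and 7.08 in WT, 6.10 and 5.81 in A677G, and 5.73 and 5.87 in LOF. The OCR at KLHL31 (chr6:53651205-53652387) varied least of the 10, from 5.25 to 5.98, and the one at OTP, a homeobox gene (chr5:77630077-77631199), ran from 4.97 to 6.02. The remaining 5 were at BCAT2, the mitochondrial aminotransferase of branched-chain amino acids, TMEM52B, CCM2L, ISLR2 and ATP5IF1, the inhibitor of mitochondrial ATP synthase. The CCM2L and ATP5IF1 OCRs overlapped an annotated start of a gene that is not protein-coding. Only 3.48% of the ATP5IF1 OCR was exon. The folds of 1 library are relative to its own background, so these differences between lines are descriptions of single OCRs.

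All 6 mutant libraries lacked a peak at 193 of the 2064 exonic OCRs that both WT libraries had open (9.35%), and 8.69% of all regions open in both WT libraries showed this pattern. There were 101 on internal and 87 on last exons. All 193 sat at the lower limit of 2 libraries that the definition of a region sets. The highest WT folds on internal exons were 5.62 and 4.59 at ULK2 (chr17:19785897-19786379), 4.30 and 5.53 at NRG1, a ligand of ERBB receptors, 4.89 and 4.74 at ITGAV, the integrin alpha V subunit, 4.12 and 5.11 at HACE1, a ubiquitin ligase, and 4.37 and 4.58 at DEPDC5, a subunit of the GATOR1 inhibitor of mTORC1. On last exons they were 4.97 and 4.51 at IL6ST, the gp130 receptor of interleukin 6 cytokines, 4.96 and 4.46 at SP4, a zinc finger transcription factor, 4.85 and 4.36 at NTAQ1, a glutamine amidase, 5.13 and 3.98 at TMED10, a receptor of secretory vesicles, and 4.97 and 4.06 at XKR3. These OCRs were narrow, from 243 bp at SP4 to 654 bp at ITGAV. The IL6ST OCR lay 7 bp from an annotated start of a gene that is not protein-coding. XKR3 lies in a part of chromosome 22 with duplicated sequence, where peaks are less certain.

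Of the 1283 exonic OCRs that all 4 WT and LOF libraries had open, 75 had no peak in any GOF library (5.85%), against 3.84% of all regions, 5.998% of intronic OCRs and 1.04% of promoters. There were 34 on internal and 40 on last exons, and the reverse pattern was found in 0 exonic OCRs and 3 regions in all. The count was 76 without Y641F replicate 1, and it rose to 115 and 167 when A677G replicate 1 or 2 was left out and to 132 and 150 without LOF replicate 1 or 2. CD163L1 (chr12:7374385-7374979) had folds of 5.38 and 4.86 in WT and 3.52 and 4.62 in LOF. PKHD1 (chr6:51933798-51934466) had 4.72 and 5.14 in WT and 4.13 and 3.85 in LOF. EBPL had 5.85 and 3.81 in WT and 4.75 and 4.35 in LOF. The receptor NOTCH2 had 4.35 and 4.67 in WT and 4.05 and 5.58 in LOF. Whether the NOTCH2NL copies hold this exon was not checked. MYDGF, a secreted growth factor, had 4.17 and 4.67 in WT and 4.14 and 4.31 in LOF. LOF folds overlapped WT in EBPL, NOTCH2 and MYDGF and were below WT in CD163L1 and PKHD1.

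On last exons this pattern was led by SEC14L1, with 4.54 and 6.21 in WT and 4.30 and 3.54 in LOF. AK9, an adenylate kinase, had 5.17 and 4.89 in WT and 3.95 and 5.84 in LOF. SPRR1B, of the cornified envelope of skin, had 4.65 and 5.22 in WT and 4.65 and 3.97 in LOF. NRP2, a co-receptor of semaphorins and VEGF, had 4.99 and 4.77 in WT and 4.80 and 3.595 in LOF, and MAP7, a microtubule-associated protein, had 4.98 and 4.67 in WT and 3.93 and 4.54 in LOF. The last exons at SEC14L1 and AK9 held the whole OCR, whereas 19.1% of the MAP7 OCR was exon.

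**Figure D5:**
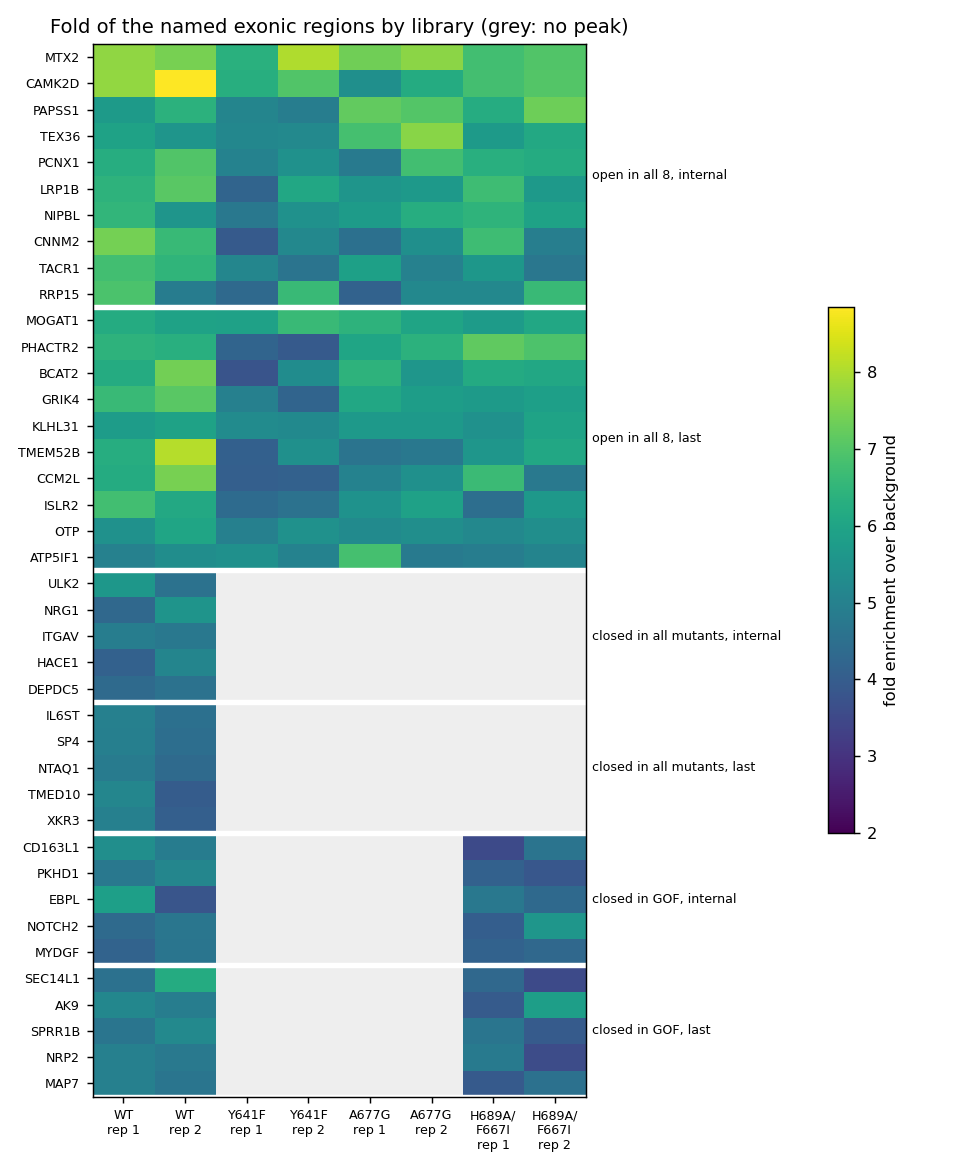
Fold over local background, as given by the authors, of 40 named exonic regions (rows, by host gene) in the 8 libraries (columns). Grey marks a library without a peak. The 20 regions open in all 8 libraries reached folds of up to 8.84 (CAMK2D, WT replicate 2), and the 20 regions closed in all mutant libraries or in all GOF libraries had WT folds from 3.81 (EBPL) to 6.21 (SEC14L1).

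EZH2 itself had 1 exonic OCR (chr7:148831831-148832766), on an internal exon, with a fold of 3.18 in A677G replicate 1 and 3.55 in LOF replicate 1 and no peak in the other 6 libraries. The introduced EZH2 could add reads on EZH2 exons. Over 1000 bp from its starts, 1 peak in LOF replicate 1 and 0 peaks in the other 7 libraries touched any EZH2 exon, out of 32 annotated exon intervals, so the A677G peak of this OCR did not itself reach the exon.

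Of the 275 genes with at least 2 exonic OCRs, the 5 with most are described OCR by OCR. In RYR1 2 OCRs were open in all 8 libraries, at 3.05 to 5.33 (chr19:38506690-38507809) and 4.15 to 5.33 (chr19:38543450-38544689). Of the other RYR1 OCRs, 1 was lost in Y641F only (chr19:38452890-38453391), 1 was lost in A677G and open in Y641F replicate 2 at 4.06 (chr19:38478420-38479069), and 1 was open in all libraries but Y641F replicate 1. In SPTBN4 1 OCR was open in all 8 libraries at 4.51 to 5.79, and the other 4 were closed in Y641F replicate 1. In GRIK4 the last-exon OCR and 1 internal OCR were open in all 8 libraries, and an internal OCR (chr11:120660052-120660495) was lost in both Y641F and A677G. Of the LOF libraries, only replicate 2 had a peak in that internal OCR, at 3.78. DST, a cytoskeletal linker, had 2 OCRs open in all 8 libraries and ENSG00000188897 had 0, each of 4. These 5 genes stood first by number of OCRs, and 6 genes shared the count of 4, of which DST, GRIK4 and ENSG00000188897 were taken by alphabet.

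The widest exonic OCRs had low folds. PRR36 on chromosome 19 held an OCR of 4028 bp, 91.3% of it exon, with folds from 2.42 in WT replicate 1 to 3.08 in Y641F replicate 2. WT was below all 6 mutant libraries there. The PRR36 OCR lay 1.03 kb from a protein-coding start and overlapped an annotated start of a gene that is not protein-coding. EEF1A1, the translation elongation factor, held 3474 bp, 18.8% of it exon, with folds from 2.08 to 2.60. HNRNPDL, an RNA-binding protein, held 3123 bp, 16.4% of it exon, with folds from 2.37 to 2.82 and no peak in Y641F replicate 1. The midpoint of the HNRNPDL OCR lay beyond the 3′ end of the gene. Reads of EEF1A1 may be shared with its many retrocopies.

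Host genes were also viewed by family, beside the overall losses of Y641F, A677G and LOF, which were 44.3%, 24.4% and 16.0% of the WT-open exonic OCRs and 35.2%, 20.8% and 14.1% of all WT-open regions. Of all protein-coding genes 12.9% held an exonic OCR. The length of genes and their number of exons were not taken into account. No family was tested against these shares. Of 42 collagen genes 17 (40.5%) held an exonic OCR, and of their 21 OCRs 18 were on internal exons. Among 17 collagen OCRs open in both WT libraries, Y641F lost 11 (64.7%), A677G 5 (29.4%) and LOF 1 (5.88%). The collagen OCRs included COL11A1, open in 7 libraries at 3.59 to 6.16, and COL4A4, lost in Y641F and without a peak in LOF replicate 1. COL9A1 at 3.65 to 5.32 and COL14A1 at 3.56 to 5.22 were both open in 8. The solute carriers had OCRs in 64 of 359 genes, and of 49 open in both WT libraries Y641F lost 22 (44.9%), A677G 14 (28.6%) and LOF 5 (10.2%). SLC2A3, a glucose transporter, had its highest fold, 6.84, in A677G replicate 2 and no peak in Y641F replicate 1. SLC25A30 was lost in Y641F and A677G, and of the LOF libraries only replicate 1 had a peak there, at 4.57.

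The C2H2 zinc finger genes, whose long last exons code for the fingers, had an OCR in 31 of 553 genes (5.61%), beside 12.9% of all protein-coding genes. Of their 32 OCRs, 19 were on last exons only. Of 24 open in both WT libraries, Y641F lost 10 (41.7%), A677G 6 (25%) and LOF 6 (25%), beside 44.3%, 24.4% and 16.0% of all exonic OCRs. ZNF704 had the highest mean fold of the family, with 7.75 and 6.60 in WT, with no peak in Y641F replicate 1 and 4.42 in replicate 2. ZNF705A and ZNF705G are near-identical copies, so their folds of 3.82 to 6.62 and 4.10 to 5.90 are uncertain. Both of these OCRs overlapped an annotated start of a gene that is not protein-coding. Protocadherins appeared in 25 of 63 genes through only 8 OCRs, since 1 last-exon OCR (chr5:141512022-141512736) belongs to 22 genes of the gamma cluster, which share their last exons. Of 6 protocadherin OCRs open in both WT libraries 1 was lost in each mutant (16.7%), beside the same overall shares. PCDH10 was open in all 8 libraries, with 7.09 and 6.38 in WT above the 3.68 to 6.03 of the mutants.

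Among HOX genes, classical Polycomb targets, 4 of 39 had an exonic OCR. HOXA11 was open in all 8 libraries at folds of 2.08 to 2.94, with the 4 GOF libraries (2.94 and 2.56 in Y641F, 2.48 and 2.62 in A677G) above the WT (2.21 and 2.08) and LOF libraries (2.22 and 2.10). These were weak peaks, with a −log10 q of 1.66 to 4.36. HOXA3 was open in the WT libraries only, at 2.71 and 2.75. HOXB1 and HOXC8 had a peak in 2 libraries each. With a −log10 q of at least 5, all 4 HOX OCRs had a peak in 0 libraries. Semaphorins and plexins had 6 OCRs in 5 of 27 genes, of which both SEMA5B OCRs were open in all 8 libraries. Of 4 open in both WT libraries Y641F lost 1 (25%), A677G 1 (25%) and LOF 0, beside 44.3%, 24.4% and 16.0% of all exonic OCRs. Genes of histone lysine methylation had 8 OCRs in 7 of 41 genes, and of 5 open in both WT libraries Y641F lost 3 (60%), A677G 2 (40%) and LOF 2 (40%), beside the same overall shares. KDM4C, a demethylase, was open in all 8 libraries at 4.12 to 4.95. KMT2A, a methyltransferase of lysine 4, had 1 internal and 1 last-exon OCR, both lost in Y641F. The internal OCR was also lost in LOF and had a peak in A677G replicate 2 at 3.26. The last-exon OCR was also lost in A677G and had a peak in LOF replicate 1 at 3.85.

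The study lists 108 genes as shared GOF targets, chosen in part on these libraries, so the list is no independent evidence here. Of these genes 29 (26.9%) held 36 exonic OCRs, and 12.9% of all protein-coding genes held at least 1. Of 23 open in both WT libraries, Y641F lost 9 (39.1%), A677G 6 (26.1%) and LOF 3 (13.0%), beside 44.3%, 24.4% and 16.0% of all exonic OCRs. NRP2 and MAP7, described above, are on this list. ARFGEF3 was open in all 8 libraries at 3.84 to 5.15 and VAV3, a guanine nucleotide exchange factor, at 3.37 to 5.82.

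On either side of the limit of 1000 bp from a start, the 215 exonic OCRs at 1001 to 1500 bp had a median GC of 57.3% and a Y641F loss of 48.5%, and the 270 exon-overlapping regions at 501 to 1000 bp had 59.9% and 42.8%, given without a test. A further 1906 regions met the rule on exons but had a peak in 1 library only, and were left out.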

How the data were processed

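ATAC-seq peak lists of 8 libraries were used, 2 for each of 4 HEK293T lines, grouped by sample title. Per the labels and the study's methods, reads were trimmed (Trim Galore 0.6.5), aligned to GRCh38/hg38 (BWA 0.7.17), cleared of duplicates (Samtools) and called as broad peaks (MACS2 2.2.7.1) in each library, and deepTools 3.5.1 was also named. Whether multi-mapping reads were dropped and reads were shifted for the transposase is not given in the sources used here. The deposited fold is a ratio of pileup to local background. The deposited −log10 p and −log10 q values are those of the authors' peak caller. The smallest −log10 q was 1.00 in each list. The deposited score was not used.

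Peaks on chromosomes 1 to 22 were merged when they shared at least 1 bp (bedtools 2.31.1, Python 3.11.15, scipy 1.17.1). Exons and starts came from GENCODE 44 and sequence from hg38. Regions within 1000 bp of a start were promoters, and the rest were exonic, intronic or intergenic in that order. Exact two-sided permutation tests compared libraries. Counts of lost and gained regions have no test, because read counts were not analysed here and the study's count-based test could not be applied. The calling of losses was checked on copies of 1 peak list from which regions had been removed. That check tests the code and not the accuracy of calls in lists that differ. A further marker gene is not reported here. The labels do not say that a replicate number marks a shared batch.

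The OCRs, gene lists and rules for naming were chosen with earlier results of these data known. Named were the 10 internal-only and 10 last-only OCRs of highest mean fold among those open in all 8 libraries, the 5 of each kind with the highest WT fold among those closed in all mutant or in all GOF libraries, the 3 gained OCRs of highest fold per mutant, those at EZH2, in the 5 genes with most OCRs, the 3 widest, and up to 4 per gene list. Central windows were taken from internal-only OCRs at the head of the rules on open and closed OCRs. These lay outside chromosome 8 and had no UTR in the window. The ITGAV window held 0 exon bases and was not printed, although the MTX2 window, printed above, also held 0. Alternatives were a −log10 q of at least 5, equal numbers of peaks, at least 50% of the region in exons, 2000 bp from a start, starts of all gene types, a peak in at least 3 libraries, the exon kind with most bases, each library left out and a replicate block.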

Additional observations from a re-analysis of the deposited data

How the results depend on the processing

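The number of exonic OCRs was lower in GOF than in WT and LOF under all 6 alternatives of peak choice and definition (log2 difference -1.51 to -0.28, exact p = 0.0286 in each, adjusted p = 0.0571 to 0.114) and without any 1 library (-0.99 to -0.55). With a replicate block, in which labels were exchanged only within a replicate number, the differences stayed -0.82 for the number, 0.029 and -0.046 for the ratios and -6.84 for the rank, and exact p was 0.0556 for this measure and for the fold rank, the smallest p of that design, and 0.500 and 0.111 for the exonic to intronic and last to internal ratios. The block left every adjusted p above 0.05. All of these tests take libraries, not lines, as units. Deviations of libraries with the same number from their line's mean correlated at -0.0352 to 0.0220 over the exonic OCRs. A correlation over OCRs cannot see a shift common to all OCRs, so whether the numbers pair the libraries was not settled. The log2 ratio of exonic to intronic OCRs reversed with a −log10 q of at least 5 (-0.27), equal numbers of peaks (-0.16) and a peak in at least 3 lists (-0.012), and the ratio of last-exon to internal-exon OCRs reversed with the q limit (0.16). The cause was not tested.

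Counts moved with the choice of peaks. At a −log10 q of at least 5, 697 exonic OCRs were left, with 369, 232 and 169 lost and 0, 0 and 1 gained in Y641F, A677G and H689A/F667I, 26 closed in all GOF libraries and 119 closed in all mutants. With equal numbers of peaks these were 169, 88 and 70 lost, 41, 58 and 48 gained, 13 and 22. With at least 50% of the region in exons they were 362, 206 and 141 lost, 10, 11 and 8 gained, 40 and 80. With a peak in at least 3 lists, 311 and 138 were lost in A677G and H689A/F667I, 9, 6 and 9 were gained in the 3 mutants and 0 were closed in all mutants, as that setting removes them by construction. Leaving out 1 library gave 1004 to 1481 lost and 26 to 56 gained in Y641F, 617 to 891 and 43 to 63 in A677G, 405 to 576 and 57 to 72 in H689A/F667I, 76 to 167 closed in all GOF libraries and 193 to 268 closed in all mutants. The last 2 counts without a library were added after seeing the data. Of 39 named entries open in all 8 libraries, 33 had a peak in all 8 with equal numbers of peaks and 12 at the q limit. The named OCRs closed in mutants moved too. With equal numbers of peaks, ITGAV kept 2 libraries. ULK2, NRG1, HACE1, DEPDC5, IL6ST, SP4, NTAQ1, TMED10 and XKR3 had a peak in 1, so no longer in both WT libraries. At the q limit CD163L1, PKHD1, EBPL, SEC14L1 and SPRR1B had a peak in 1 library. NOTCH2, MYDGF, NRP2 and MAP7 had one in 2 and AK9 in 3. Peak lists hold no depth, so a closed region may be one below the limit of a shallower library.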
